A study of Mus musculus with 12 samples.

Results

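Resident Kupffer cell genes were followed in whole-liver RNA sequencing values of mice. The set was defined by symbol: Cd163, Marco, Cd5l, Clec4f, Vsig4, Timd4, Csf1r, Adgre1, Folr2 and Slc40a1, matched to mouse Ensembl identifiers through the GENCODE M21 annotation of GRCm38. These genes, and the lists set beside them below, were chosen with earlier results of these data known. Shares called among them are therefore not independent of those results. All 10 had values, among 22381 gene identifiers not listed at 0 in all 12 libraries, and all 10 were among the 12637 genes tested. The filter for testing asked for a log2 value of at least 3.32 in at least 3 libraries, and the lowest value of any of the 10 genes in any library was 6.49.

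The 12 libraries came from flash-frozen livers of female C57BL/6 mice and formed 4 groups of 3. HFHS_Calcitriol and HFHS_Curcumin mice ate a diet rich in fat and sugar for 14 weeks and received intravenous liposomes in weeks 12 and 13, loaded with calcitriol, the active vitamin D hormone, or with curcumin, a polyphenol of turmeric. Profiling took place 2 weeks after the first injection. HFHS mice had the diet without liposomes. The group titled CNT carries the same diet label as the rest, so what separates CNT from HFHS is not given in the sources used here. Livers given empty liposomes were not analysed here, so the agent cannot be told apart from the liposome and the injection. Doses and the number of mice behind each library are not given in the sources used here, so a p-value here reflects only the variation among these libraries, which may be technical.

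Kupffer cells are the macrophages that live inside the liver sinusoids, where they clear microbes, ageing red cells and particles, liposomes among them, from portal blood. They are seeded before birth, renew locally with signals through the CSF1 receptor, and can be partly replaced by blood monocytes when resident cells are lost in fatty liver disease. CLEC4F, VSIG4 and TIM-4 are widely used to recognise them in the mouse. In whole liver, fewer Kupffer cells and less RNA of a gene per cell cannot be told apart.

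Values are the authors' log2 expression levels, and the depth of each library is unknown. HFHS replicates 1 and 3 stood apart from the other libraries. On the first principal component, which held 37.5% of the variance, they lay at -32.8 and -28.4, while the other 10 libraries lay between 0.396 and 14.4, HFHS replicate 2 at 3.09 among them. Comparisons with HFHS are therefore also given with HFHS replicate 2 alone, a fit that gives the single library the spread of the remaining groups. The liver label was checked against 10 hepatocyte markers, whose summed level (log2 of the sum of the back-transformed values) was 20.3 to 21.2 over all libraries.

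RefSeq promoter sequences (GRCm38.p6) were matched for 7 of the 10 genes, in 8 promoters because Folr2 has 2; Csf1r, Adgre1 and Slc40a1 had no entry. The 250 bases before the RefSeq start are shown for Cd163, Marco, Clec4f and Vsig4. Cd163 was the member with the largest difference between groups, and Marco the one with the widest spread between libraries within a group. Clec4f and Vsig4 are a pair of Kupffer cell markers that passed the test in the same comparison. The Clec4f window reaches into the gene as annotated by GENCODE (83644542 to 83656187). For Cd163 and Timd4, the bases after the RefSeq start were not found in a GENCODE transcript. Capitals mark GAGGAA, the core bound by the macrophage factor PU.1, and TGCTGA, a MAF half-site, on either strand.
Cd163 promoter (chr6:124304401-124304650, plus strand): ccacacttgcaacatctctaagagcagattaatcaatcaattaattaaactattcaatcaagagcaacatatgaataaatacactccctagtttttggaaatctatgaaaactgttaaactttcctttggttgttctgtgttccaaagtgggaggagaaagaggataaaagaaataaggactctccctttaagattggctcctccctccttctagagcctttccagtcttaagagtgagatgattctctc
Marco promoter (chr1:120505025-120505274, minus strand): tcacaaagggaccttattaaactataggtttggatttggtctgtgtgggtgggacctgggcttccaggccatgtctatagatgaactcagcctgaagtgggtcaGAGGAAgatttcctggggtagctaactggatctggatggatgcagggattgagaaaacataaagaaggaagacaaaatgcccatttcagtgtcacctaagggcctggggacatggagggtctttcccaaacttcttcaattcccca
Clec4f promoter (chr6:83656117-83656366, minus strand): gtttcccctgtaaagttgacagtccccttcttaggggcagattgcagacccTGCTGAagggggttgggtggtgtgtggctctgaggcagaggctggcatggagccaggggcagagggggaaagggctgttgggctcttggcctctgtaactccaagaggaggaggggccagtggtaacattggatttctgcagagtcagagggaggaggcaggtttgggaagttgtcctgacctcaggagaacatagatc
Vsig4 promoter (chrX:96293439-96293688, minus strand): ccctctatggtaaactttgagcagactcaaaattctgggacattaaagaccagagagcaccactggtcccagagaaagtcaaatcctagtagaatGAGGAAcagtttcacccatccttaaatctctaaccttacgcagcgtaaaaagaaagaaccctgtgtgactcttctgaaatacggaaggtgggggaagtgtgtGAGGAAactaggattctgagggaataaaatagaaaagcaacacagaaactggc
In these windows GAGGAA was found in the promoters of 3 of the 7 genes (Vsig4 with 2 matches, Marco and Cd5l) and in 23.3% of 32851 promoter windows of the same length. TGCTGA was found for 4 of the 7 (Clec4f, Timd4, Cd5l and Folr2) and in 16.1% of all windows. No GAGGAA match overlapped a TGCTGA match. The E-box CACGTG, present in 6.02% of windows, and the RBPJ site GTGGGAA, in 5.42%, were in none of the 8. The Cd163 window held no match to any of the 4 motifs. These matches describe letters only.

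Per kilobase of merged exon, Cd5l was the highest of the 10 genes and Cd163 the lowest. On this scale (the log2 value minus log2 of the exon length in kilobases) Cd5l averaged 10.21 ± 0.329 (SD over 12 libraries), Clec4f 9.76 ± 0.281 and Vsig4 9.22 ± 0.276. The next level was that of Slc40a1 at 8.66 ± 0.179, ahead of Csf1r at 7.98 ± 0.304 and Marco at 7.84 ± 0.721. Folr2 (7.35 ± 0.259), Adgre1 (7.27 ± 0.402), Timd4 (6.27 ± 0.362) and Cd163 (5.82 ± 0.882) completed the order. Within CNT, the libraries of neighbouring genes did not overlap from Cd5l down to Csf1r or between Adgre1 and Timd4, while Csf1r overlapped Marco, Marco overlapped Folr2, Folr2 overlapped Adgre1 and Timd4 overlapped Cd163. Over all 12 libraries only Vsig4 and Slc40a1 were neighbours without overlap. Merged exons include every annotated isoform, so a gene with long rare exons is placed too low.

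**Figure D1:**
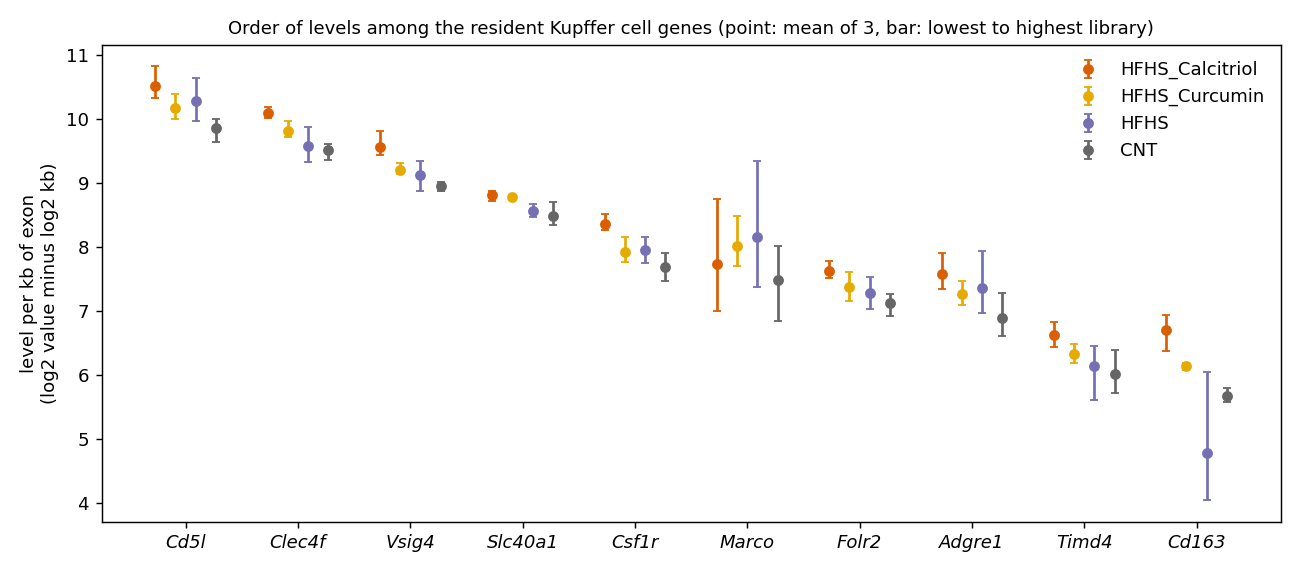
Level per kilobase of merged exon (y axis, log2 value minus log2 kilobases) of the 10 genes (x axis, in falling order of the 12-library mean) in the 4 groups. Points are means of 3 libraries and bars run from the lowest to the highest library; Cd163 in HFHS spans 4.04 to 6.05, and Marco in HFHS spans 7.38 to 9.34.

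Among the scavenger receptors, Cd163 and Marco varied most between libraries. Cd163 encodes the receptor that takes up haemoglobin bound to haptoglobin (ENSMUSG00000008845, GRCm38 chromosome 6, 124304656 to 124330527, plus strand). Cd163 stood at 8.83, 9.39 and 9.24 in HFHS_Calcitriol replicates 1 to 3, at 8.52, 8.60 and 8.62 in HFHS_Curcumin, at 6.70, 8.5 and 6.49 in HFHS, and at 8.02, 8.25 and 8.10 in CNT (log2). All 3 calcitriol libraries were above every other library, and HFHS replicates 1 and 3 were below every other library. HFHS replicate 2 lay just under the curcumin libraries and above all 3 CNT libraries.

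Marco encodes a collagen-like receptor for bacteria and particles (ENSMUSG00000026390, chromosome 1, 120474538 to 120505024, minus strand). It stood at 8.38, 7.94 and 9.71 in HFHS_Calcitriol, at 9.43, 8.78 and 8.65 in HFHS_Curcumin, at 10.29, 8.68 and 8.32 in HFHS, and at 8.96, 7.79 and 8.54 in CNT (log2, replicates 1 to 3). All 4 groups overlapped, and single libraries, HFHS replicate 1 and HFHS_Calcitriol replicate 3, were the 2 highest. Its SD between libraries within a group, pooled over the 4 groups, was 0.786, larger than that of 99.8% of genes tested, and that of Cd163 was 0.575, larger than 99.3%, against a median of 0.123 over all genes.

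Cd5l encodes a secreted scavenger protein with the same cysteine-rich domain type, made by tissue macrophages and known for limiting lipid storage and apoptosis (ENSMUSG00000015854, chromosome 3, 87357881 to 87371073, plus strand). Cd5l stood at 11.36, 11.41 and 11.86 in HFHS_Calcitriol, at 11.42, 11.13 and 11.03 in HFHS_Curcumin, at 11.67, 11.24 and 11 in HFHS, and at 10.98, 10.68 and 11.02 in CNT (log2). The calcitriol and curcumin groups were both wholly above CNT, while HFHS overlapped all groups.

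The surface receptors by which Kupffer cells are recognised were more even than Cd163 and Marco. Their pooled SDs were 0.175 for Clec4f, 0.169 for Vsig4 and 0.316 for Timd4, the last above that of Cd5l (0.259). Clec4f, a galactose-binding lectin (ENSMUSG00000014542, chromosome 6, 83644542 to 83656187, minus strand), stood at 11.32, 11.40 and 11.50 in HFHS_Calcitriol, at 11.28, 11.05 and 11.04 in HFHS_Curcumin, at 10.86, 11.19 and 10.63 in HFHS, and at 10.92, 10.67 and 10.87 in CNT (log2). The 3 calcitriol libraries were the 3 highest of the 12. Vsig4, the complement receptor CRIg that captures opsonised bacteria (ENSMUSG00000044206, chromosome X, 96247203 to 96293438, minus strand), stood at 10.03, 10.01 and 10.38 in HFHS_Calcitriol, at 9.88, 9.72 and 9.74 in HFHS_Curcumin, at 9.74, 9.92 and 9.44 in HFHS, and at 9.53, 9.44 and 9.59 in CNT (log2). Again no library of another group reached the calcitriol libraries. Timd4, the phosphatidylserine receptor for apoptotic cells and a mark of long-lived resident macrophages, stood at 7.72, 7.56 and 7.95 in HFHS_Calcitriol, at 7.61, 7.41 and 7.30 in HFHS_Curcumin, at 7.57, 7.50 and 6.73 in HFHS, and at 7.51, 6.83 and 7.04 in CNT (log2). Calcitriol did not overlap CNT for Timd4 but overlapped HFHS and curcumin, and HFHS replicate 3 was the lowest library.

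Csf1r encodes the receptor for the macrophage growth factors CSF1 and IL-34, and Adgre1 the F4/80 antigen, an adhesion receptor by which mouse macrophages are recognised. Csf1r stood at 10.83, 10.80 and 11.04 in HFHS_Calcitriol, at 10.69, 10.30 and 10.39 in HFHS_Curcumin, at 10.69, 10.48 and 10.28 in HFHS, and at 10.44, 10 and 10.17 in CNT (log2). The calcitriol libraries were the 3 highest, and the other groups overlapped. Adgre1 stood at 9.21, 9.04 and 9.59 in HFHS_Calcitriol, at 9.16, 8.78 and 8.94 in HFHS_Curcumin, at 9.64, 8.87 and 8.66 in HFHS, and at 8.97, 8.29 and 8.48 in CNT (log2). Only the calcitriol group cleared CNT for Adgre1, and the highest library was HFHS replicate 1. Exons of Csf1r overlap those of Hmgxb3, and exons of Folr2 those of Gm10602, both on the opposite strand and both with values here; whether counting used the strand is not given in the sources used here, so reads of these pairs cannot be told apart.

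Folr2 encodes a folate receptor of tissue macrophages, and Slc40a1 encodes ferroportin, the iron exporter through which macrophages return iron from red cells, which hepatocytes also make. Folr2 stood at 8.23, 8.14 and 8.40 in HFHS_Calcitriol, at 8.24, 7.98 and 7.78 in HFHS_Curcumin, at 7.91, 8.16 and 7.66 in HFHS, and at 7.81, 7.55 and 7.89 in CNT (log2). Slc40a1 stood at 11.89, 12.03 and 12.04 in HFHS_Calcitriol, at 11.90, 11.98 and 11.96 in HFHS_Curcumin, at 11.84, 11.74 and 11.64 in HFHS, and at 11.87, 11.51 and 11.57 in CNT (log2). For Folr2 only the calcitriol group was wholly above CNT, and HFHS overlapped every group. Slc40a1 was the steadiest of the 10 genes, with a pooled SD of 0.119, and its liposome-treated groups were both wholly above HFHS and CNT.

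**Figure D2:**
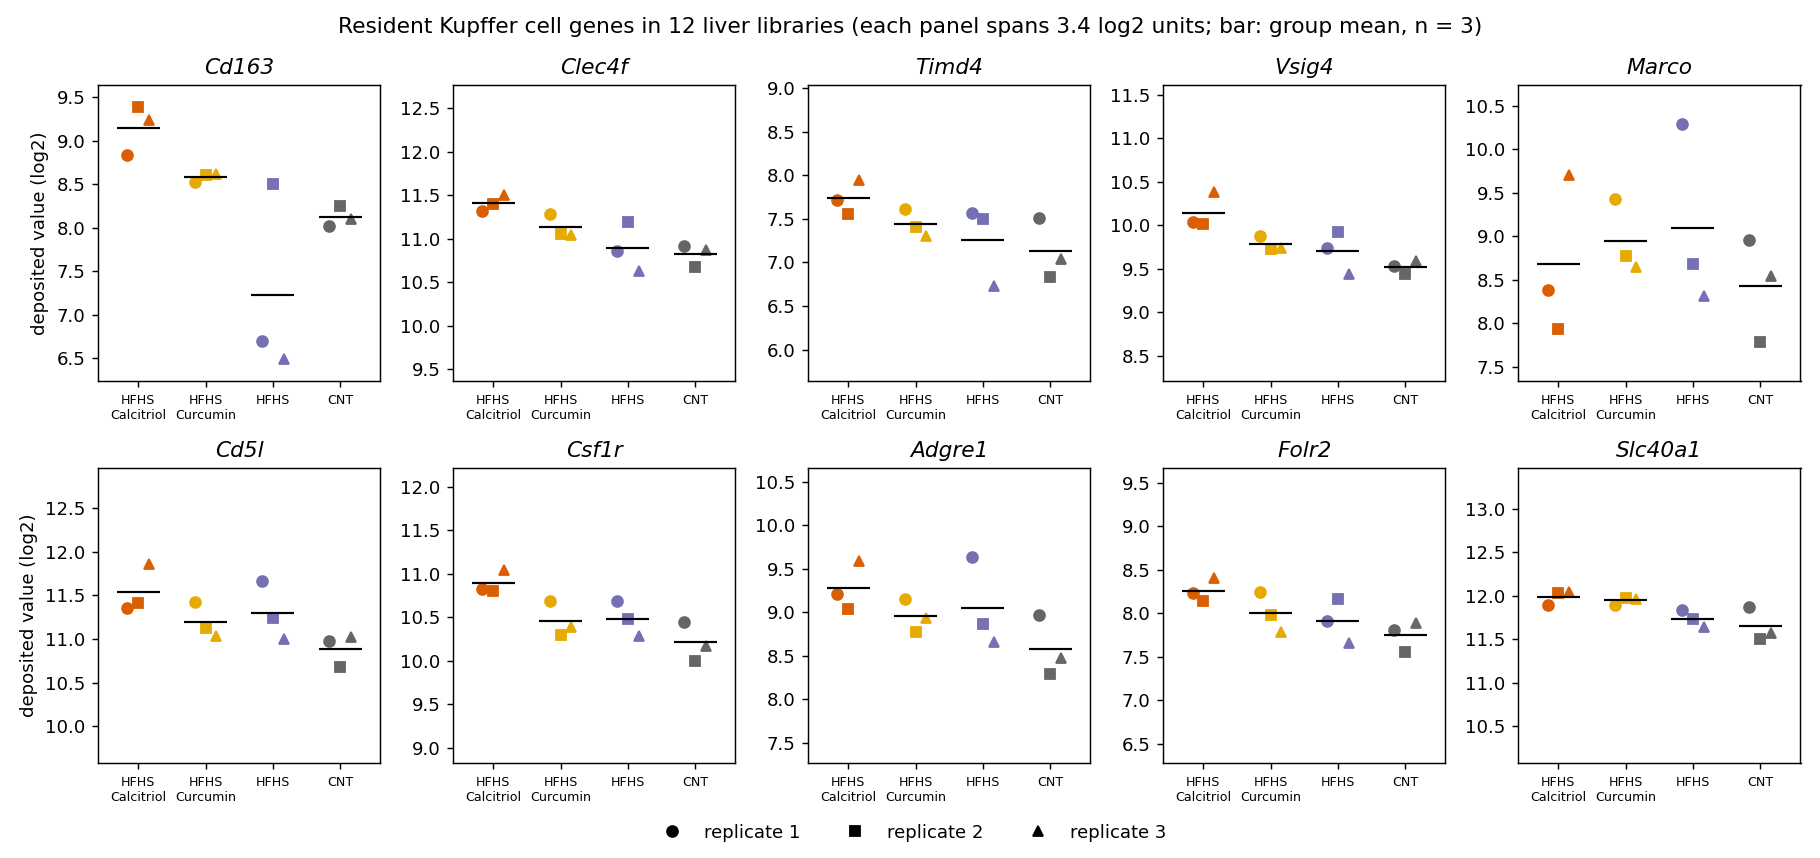
Deposited log2 value (y axis) of each gene in each of the 12 libraries, by group (x axis); symbols mark replicates and bars group means (n = 3). Calcitriol libraries are the 3 highest for Cd163 (8.83 to 9.39), Clec4f, Vsig4 and Csf1r, Cd163 is low in HFHS replicates 1 and 3 (6.70 and 6.49), and Marco overlaps in all groups.

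Single libraries moved the members together. HFHS_Calcitriol replicate 3 was the highest library of its group for 9 of the 10 genes and the highest of all 12 for 7. HFHS replicate 3 was the lowest of its group for all 10, and CNT replicate 2 the lowest of its group for 9 and of all 12 for 7. Deviations of each gene from its mean over the 12 libraries, averaged over the 10 genes, were 0.20, 0.19 and 0.59 in HFHS_Calcitriol, 0.23, -0.01 and -0.04 in HFHS_Curcumin, 0.11, 0.04 and -0.50 in HFHS, and -0.08, -0.48 and -0.26 in CNT (log2). Calcitriol and CNT did not overlap on this mean, while HFHS and curcumin overlapped each other.

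Within the set, Clec4f and Vsig4 were nearest to each other, with a root-mean-square distance between their deviations of 0.093 (log2, over 12 libraries). Folr2 lay 0.0968 from Clec4f, and Cd5l and Csf1r lay 0.128 apart. Cd163 and Marco were the least alike, at 0.715 and 0.579 from the mean of the 10 genes, against 0.0966 to 0.208 for the other 8. Among 1296 other genes that varied at least as much as this mean profile, the 5 nearest to it were Cfp, which encodes the complement regulator properdin (distance 0.0769), Fpr1, a receptor for formylated bacterial peptides (0.135), the transporter gene Slc16a6 (0.191), Hgf, the hepatocyte growth factor gene (0.192), and the matrix gene Emilin2 (0.197). Cfp stood at 9.61, 9.54 and 10.05 in HFHS_Calcitriol, at 9.82, 9.59 and 9.45 in HFHS_Curcumin, at 9.71, 9.49 and 8.94 in HFHS, and at 9.48, 9.03 and 9.23 in CNT (log2).

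Calcitriol liposomes were set against untreated HFHS to ask what the treatment changed. Cd163 rose, and 8 of the other 9 genes had differences above 0 that did not pass. Cd163 averaged 9.15 ± 0.29 in HFHS_Calcitriol and 7.23 ± 1.10 in HFHS (mean ± SD of 3 log2 values in each group), a difference of 1.92 ± 0.42 (SE), or 3.78-fold, with adjusted p = 0.047 in limma. That is 1 of 10 genes, where 2.21% of all genes tested were called in either direction (0.973% higher and 1.23% lower). Clec4f differed by 0.51 ± 0.13 (adjusted p = 0.0608), Vsig4 by 0.44 ± 0.12 (adjusted p = 0.0781) and Csf1r by 0.41 ± 0.14 (adjusted p = 0.124) in limma. Timd4 had 0.48 ± 0.22, Folr2 0.35 ± 0.15, Slc40a1 0.24 ± 0.10, Cd5l 0.24 ± 0.18, Adgre1 0.23 ± 0.25 and Marco -0.42 ± 0.59 (log2 difference ± SE). The groups did not overlap, with calcitriol higher, for Cd163, Clec4f, Vsig4, Csf1r and Slc40a1, or 5 of 10. Of all genes 24.4% did not overlap in either direction, 12.6% with calcitriol higher. The median difference of the 10 genes was 0.38, and that of all genes 0.00.

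The Cd163 call rested on which libraries were used. With HFHS replicate 2 alone its difference was 0.65 (limma adjusted p = 0.22), and without HFHS replicate 2 it was 2.55 (adjusted p = 2.23e-06 in limma). Without HFHS replicate 1 or 3 the limma adjusted p was 0.198 or 0.119, and without HFHS_Calcitriol replicate 1, 2 or 3 it was 0.0691, 0.163 or 0.16; the limma value was 0.102 with no filter on low values and 0.158 with only these 2 groups in the fit. Without HFHS replicate 2, Clec4f (0.66, adjusted p = 0.00157), Vsig4 (0.55, adjusted p = 0.00777) and Folr2 (0.47, adjusted p = 0.0417) passed as well in limma. Calls rose across all genes in that fit, to 2194 (865 higher), against 279 with all libraries. None of the 10 passed with HFHS replicate 2 alone, where the difference was 0.22 for Clec4f and for Vsig4, 0.41 for Csf1r and 0.10 for Folr2.

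Calcitriol livers were also set against CNT. Vsig4, Csf1r and Clec4f rose, 3 of 10 genes, where 4.04% of all genes were called (1.77% higher and 2.27% lower). Vsig4 averaged 10.14 ± 0.21 in HFHS_Calcitriol and 9.52 ± 0.076 in CNT, a difference of 0.62 ± 0.12 (SE, limma adjusted p = 0.0203, 1.54-fold). Csf1r averaged 10.89 ± 0.13 and Clec4f 11.41 ± 0.09 in HFHS_Calcitriol, against 10.21 ± 0.22 and 10.82 ± 0.13 in CNT (mean ± SD of 3 log2 values in each group). Their differences were 0.68 ± 0.14 (limma adjusted p = 0.0233, 1.61-fold) for Csf1r and 0.58 ± 0.13 (limma adjusted p = 0.0342, 1.5-fold) for Clec4f.

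The other 7 had differences above 0 from CNT without passing. They were 1.03 ± 0.42 for Cd163, 0.70 ± 0.25 for Adgre1, 0.65 ± 0.18 for Cd5l, 0.62 ± 0.22 for Timd4, 0.51 ± 0.15 for Folr2, 0.34 ± 0.10 for Slc40a1 and 0.24 ± 0.59 for Marco (log2 ± SE). All but Marco, 9 of 10, were higher in every calcitriol library than in every CNT library. Of all genes 32.3% did not overlap in either direction, 14.9% with calcitriol higher. The median of the 10 genes was 0.62, and 0.00 over all genes. Other macrophage genes, described below, separated these groups too. Calcitriol was wholly above CNT for 16 of 19 genes shared by resident and incoming macrophages and for 7 of 12 further Kupffer cell genes. The SE of Cd163 drew on all 4 groups, with SDs of 0.29 in HFHS_Calcitriol, 0.12 in CNT and 1.1 in HFHS. With only HFHS_Calcitriol and CNT in the fit Cd163 passed (limma adjusted p = 0.0138), as did Cd5l (0.0498) and Folr2 (0.0406). Vsig4, Csf1r and Clec4f passed there too, so 6 of 10 did, where 548 of all genes were called. Cd163 passed in 1 of 11 alternative fits. Leaving out 1 library kept the differences of Vsig4, Csf1r and Clec4f above 0, at 0.50 to 0.80, and ended calls. Vsig4 did not pass without HFHS_Calcitriol replicate 2 or 3 or CNT replicate 1 or 2 (limma adjusted p = 0.0521, 0.0806, 0.0525 and 0.088). Csf1r did not pass without HFHS_Calcitriol replicate 1, 2 or 3 or CNT replicate 2 (limma adjusted p = 0.0596, 0.0676, 0.102 and 0.102). Clec4f did not pass without HFHS_Calcitriol replicate 1, 2 or 3 or CNT replicate 1 or 2 (limma adjusted p = 0.0666, 0.0917, 0.126, 0.0564 and 0.128).

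With curcumin liposomes no gene of the set passed against HFHS, where 0.301% of all genes were called in limma (0.15% in each direction). Of the 10, 6 had differences above 0 and 4 below, with a median of 0.08 (0.00 over all genes), and 1 had an unadjusted p under 0.05. Cd163 averaged 8.58 ± 0.054 in HFHS_Curcumin and 7.23 ± 1.10 in HFHS (mean ± SD of 3 log2 values in each group), a difference of 1.35 ± 0.42 (limma adjusted p = 0.107). With HFHS replicate 2 alone the Cd163 difference was 0.08, and without HFHS replicate 2 it was 1.98 (limma adjusted p = 1.05e-05), where Clec4f passed too (0.38, limma adjusted p = 0.0232). The fit without HFHS replicate 2 called 3207 of all genes, against 38 with all libraries. Clec4f had 0.23 ± 0.13 and Slc40a1 0.21 ± 0.10, and the remaining 7 lay between -0.15 and 0.18. Cd163 and Slc40a1 were the 2 genes whose curcumin and HFHS libraries did not overlap, with curcumin higher, Cd163 by a narrow margin over HFHS replicate 2. Of all genes 23.6% did not overlap, 11.9% with curcumin higher.

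Against CNT, curcumin livers had differences above 0 for all 10 genes, from 0.25 to 0.52, and none passed in limma (3.51% of all genes called, 1.6% higher and 1.91% lower, and 2 of the 10 at an unadjusted p under 0.05). Slc40a1 had 0.30 ± 0.10 (limma adjusted p = 0.14), and Clec4f 0.30 ± 0.13 (limma adjusted p = 0.238). Cd163, Clec4f, Vsig4, Cd5l and Slc40a1, 5 of 10, were higher in every curcumin library than in every CNT library. Of all genes 25.6% did not overlap, 12.9% with curcumin higher. With only these 2 groups in the fit Cd163 (0.46) passed, at limma adjusted p = 0.0145. That fit called 644 of all genes (343 higher), against 443 with all 4 groups.

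Curcumin was also set directly against calcitriol, which tests whether their effects differ. None of the 10 passed in limma, as for all 12637 genes (0% called; 1873 genes at an unadjusted p under 0.05), and the lowest adjusted p among the 10 was 0.25. Csf1r averaged 10.46 ± 0.20 in HFHS_Curcumin and 10.89 ± 0.13 in HFHS_Calcitriol, a difference of -0.43 ± 0.14 (SE; limma adjusted p = 0.25), and Vsig4 had -0.36 ± 0.12 (limma adjusted p = 0.25). Differences were below 0 for 9 of 10, with a median of -0.31, and Marco had 0.27 ± 0.59. Cd163, Clec4f, Vsig4 and Csf1r were lower in every curcumin library than in every calcitriol library, 4 of 10. Of all genes 28.7% did not overlap, 13.8% with curcumin lower. A p that misses the threshold does not show that the agents act alike.

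Untreated HFHS livers were compared with CNT to see how these groups differed in resident macrophage genes. None of the 10 passed in limma, where 11.9% of all genes were called (6.55% higher and 5.36% lower), and no member's libraries separated the groups (26.9% of all genes did not overlap); 1 of the 10, Cd5l, had an unadjusted p under 0.05. Cd163 averaged 7.23 ± 1.10 in HFHS and 8.12 ± 0.12 in CNT, a difference of -0.89 ± 0.42 (SE; limma adjusted p = 0.17). Its direction depended on the libraries, with -1.53 without HFHS replicate 2 (limma adjusted p = 3.1e-05) and 0.38 with HFHS replicate 2 alone. The fit without HFHS replicate 2 called 3717 of all genes, against 1505 with all libraries. Marco had 0.66 ± 0.59, Adgre1 0.47 ± 0.25, Cd5l 0.41 ± 0.18 and Csf1r 0.28 ± 0.14, and the other 5 lay between 0.07 and 0.18. The median was 0.17, and -0.01 over all genes. Each group's libraries serve in 3 of these 6 comparisons, so the comparisons are not independent.

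**Figure D3:**
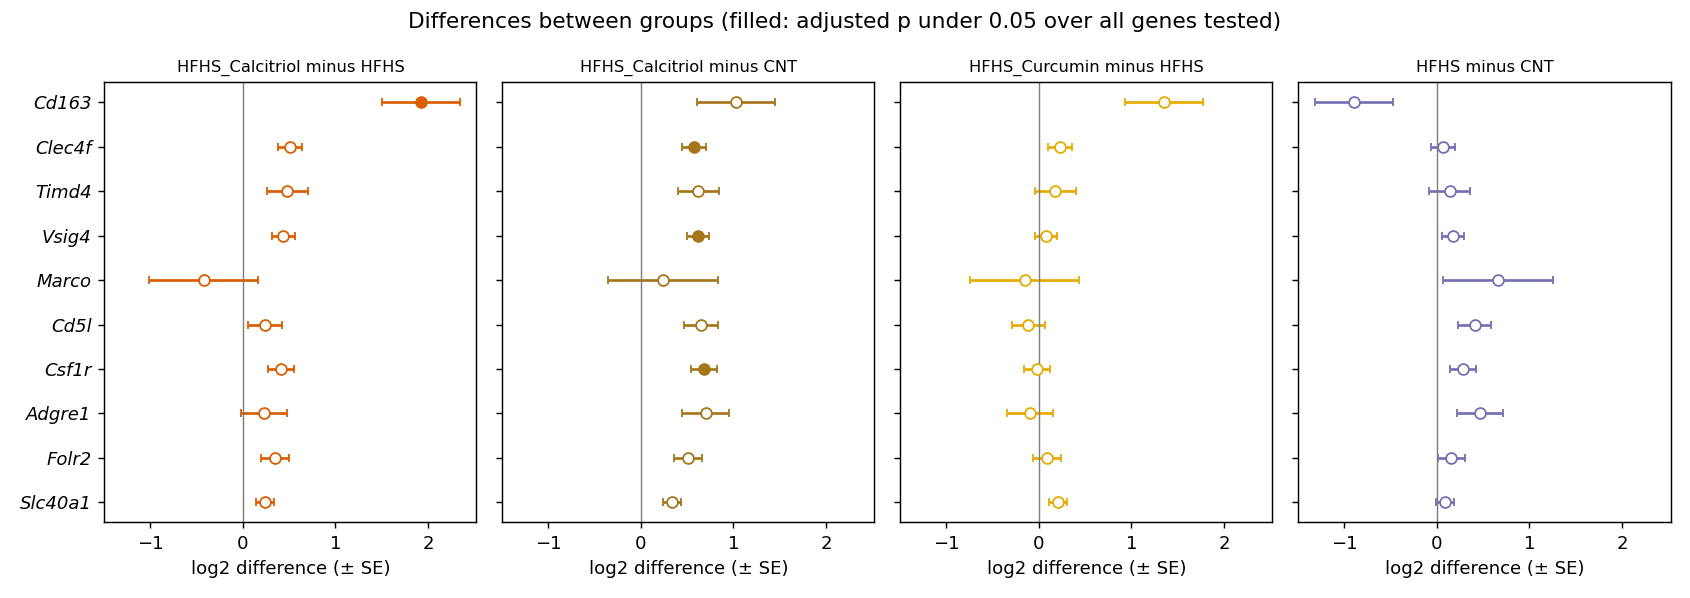
Log2 difference (x axis, points with SE from limma) of each gene (y axis) in 4 comparisons named above the panels; filled points have an adjusted p under 0.05 over all genes tested. Cd163 is filled in calcitriol against HFHS (1.92) and Clec4f, Vsig4 and Csf1r in calcitriol against CNT (0.58 to 0.68), while the panels of curcumin against HFHS and HFHS against CNT hold no filled point.

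Macrophage genes shared by resident and incoming cells, and markers of infiltrating and lipid-associated macrophages, differed between HFHS and CNT where the resident genes did not pass. The share of all genes called there was 6.55% higher and 5.36% lower. Against CNT, 2.27% of all genes were called lower in calcitriol and 1.91% in curcumin. Of 19 pan-macrophage genes 9 rose in HFHS, with a median of 0.62, among them Cd68, a lysosomal glycoprotein (8.58 in HFHS and 7.95 in CNT, 0.62 ± 0.13, limma adjusted p = 0.0188), and Ctss, a protease that processes antigen (0.72 ± 0.15, limma adjusted p = 0.0191). Of 13 infiltrating and lipid-associated markers tested (of 16) 7 rose, with a median of 0.97, including Trem2, a lipid receptor (1.08 ± 0.24, limma adjusted p = 0.0228), and Gpnmb, a glycoprotein of lipid-laden macrophages (2.64 ± 0.71, limma adjusted p = 0.0427). The mean deviation of these 13 genes was 1.41 and 0.89 in HFHS replicates 1 and 3, -0.16 in HFHS replicate 2 and -0.36 to -0.09 in the other 9 libraries. Against HFHS 0 of the 13 passed with calcitriol (median -0.75) or curcumin (median -0.74), and against CNT 1 fell with each, the lipid chaperone gene Fabp5 (-1.27 with calcitriol and -1.19 with curcumin); with any 1 library of the pair left out, 0 of the 13 passed against CNT with either treatment. With HFHS replicate 2 alone 0 pan-macrophage genes and 0 infiltrating markers passed in HFHS against CNT (medians 0.26 and 0.20). Without HFHS replicate 2, 14 of 19 and 11 of 13 rose (medians 0.73 and 1.3), and against HFHS 12 of the 13 infiltrating markers fell with each treatment. That fit called many genes outside these lists. Of all genes it called 3717 in HFHS against CNT (2042 higher), 3207 in curcumin against HFHS (1456 higher) and 2194 in calcitriol against HFHS (865 higher). With all libraries the counts were 1505, 38 and 279. Without HFHS replicate 1 or CNT replicate 2 neither list had a call in HFHS against CNT, and without HFHS replicate 3 the pan-macrophage genes had 1 and the infiltrating markers 0. Without CNT replicate 1 the infiltrating markers had 0 and without CNT replicate 3 they had 3.

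The mean of the resident genes lay below that of the pan-macrophage genes in HFHS replicates 1 and 3. The mean deviation of the 10 genes minus that of the pan-macrophage genes was -0.40, 0.11 and -0.67 in HFHS replicates 1 to 3. It was 0.08, 0.13 and 0.27 in HFHS_Calcitriol, 0.12, 0.14 and 0.13 in HFHS_Curcumin, and 0.08, -0.02 and 0.03 in CNT (log2). Every treated library was thus at or above the CNT range, and so was untreated HFHS replicate 2 (0.11). HFHS replicates 1 and 3 were below all others. With Cd163 left out, the resident mean deviation was 0.29, 0.02 and -0.36 in HFHS replicates 1 to 3 (0.11, 0.04 and -0.50 with it). That of the pan-macrophage genes was 0.51, -0.07 and 0.17 there. This is a description with no test, and the difference between the lists was not tested. Against HFHS, 0 of the 19 pan-macrophage genes passed with calcitriol (median -0.01) and 0 with curcumin (median -0.29). With calcitriol against CNT 4 rose (median 0.46), where 1.77% of all genes were called higher. They were Axl, Cybb and the scavenger receptors Msr1 (0.62 ± 0.14) and Mrc1 (0.57 ± 0.13). On leaving out 1 library 0 to 3 passed there.

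**Figure D4:**
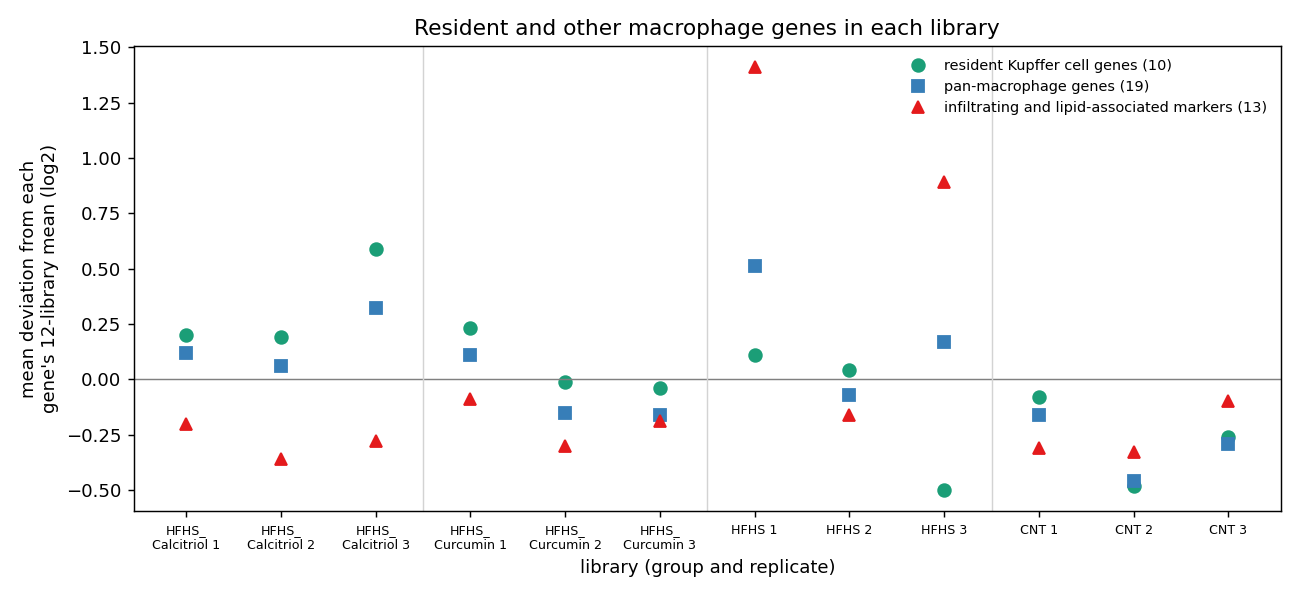
Mean deviation of each gene list from its genes' 12-library means (y axis, log2) in each library (x axis, grouped by treatment), for the 10 resident genes, 19 pan-macrophage genes and 13 infiltrating and lipid-associated markers. The infiltrating markers reach 1.41 and 0.89 in HFHS replicates 1 and 3, where the resident genes are at 0.11 and -0.50, and the resident genes are highest in HFHS_Calcitriol replicate 3 (0.59).

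A list of 13 further Kupffer cell genes, 12 of them tested, had calls in 3 comparisons. The share of all genes called higher was 0.973% in calcitriol against HFHS, 1.77% in calcitriol against CNT and 6.55% in HFHS against CNT. Against HFHS, 2 of 12 rose with calcitriol: Siglec1, the sialic acid receptor CD169 (8.78 in HFHS_Calcitriol and 7.97 in HFHS, 0.81 ± 0.19, limma adjusted p = 0.0486), and the potassium channel gene Kcna2 (0.66 ± 0.15, limma adjusted p = 0.0458). Against CNT 3 of 12 rose with calcitriol, Siglec1 (0.88 ± 0.19, limma adjusted p = 0.0309), Kcna2 (0.73 ± 0.15, limma adjusted p = 0.0247) and Clec1b, which encodes the podoplanin receptor CLEC-2 (0.39 ± 0.097, limma adjusted p = 0.0443). With curcumin 0 of 12 passed against HFHS or CNT. In HFHS against CNT 1 of 12 rose, Vcam1, an adhesion molecule that sinusoidal endothelium also carries (0.84 ± 0.17, limma adjusted p = 0.0161). The Vcam1 difference was 0.62 with HFHS replicate 2 alone. The list had 3 calls (2 higher and 1 lower) without HFHS replicate 2, where 3717 of all genes were called, and 0 without HFHS replicate 1 or CNT replicate 2. Fcna, a ficolin gene of resident macrophages, had 0.35 ± 0.16 with calcitriol and 0.30 ± 0.16 with curcumin against HFHS, and -0.24 ± 0.16 in HFHS against CNT, without passing. Against HFHS replicate 2 alone 0 of 12 passed with either treatment, and with calcitriol Siglec1 had 0.50 (limma adjusted p = 0.374) and Kcna2 0.66 (limma adjusted p = 0.343). On leaving out 1 library 0 to 3 of the 12 passed in calcitriol against HFHS and 0 to 4 in calcitriol against CNT, with 0 there without HFHS_Calcitriol replicate 2 or 3 or CNT replicate 2.

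Among 16 ligands and transcription factors of macrophage identity, neither ligand of the CSF1 receptor passed in any of the 6 comparisons. Csf1 had a difference of 0.34 ± 0.10 in HFHS against CNT (limma adjusted p = 0.0544) and Il34 one of 0.37 ± 0.11 in curcumin against HFHS (limma adjusted p = 0.0971). Spi1, which encodes PU.1, rose in HFHS against CNT (0.53 ± 0.14, limma adjusted p = 0.0345) and in calcitriol against CNT (0.56 ± 0.14, limma adjusted p = 0.0443). Irf8 and Tcf4 rose and Cebpa and Bhlhe40 fell in HFHS against CNT, so that with Spi1 3 of 16 rose and 2 fell. The share of all genes called was 6.55% higher and 5.36% lower there, and 1.77% higher and 2.27% lower in calcitriol against CNT. Maf, a factor of resident macrophages, also rose in calcitriol against CNT (0.37 ± 0.084, limma adjusted p = 0.0354), and Bhlhe40 fell there (-0.66 ± 0.13, limma adjusted p = 0.0237). In HFHS against CNT 0 of 16 passed with HFHS replicate 2 alone, 7 passed without HFHS replicate 2, and 0 passed without HFHS replicate 1, HFHS replicate 3 or CNT replicate 2. Without HFHS replicate 2, 3717 of all genes were called in HFHS against CNT. On leaving out 1 library 0 to 2 of the 16 passed in calcitriol against CNT. None of the 16 passed against HFHS with either treatment or between the treatments. Nr1h3, which encodes the sterol receptor LXR alpha, and Spic, a factor of iron-recycling macrophages, had differences between -0.09 and 0.33 in the 6 comparisons and did not pass.

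Heme and iron handling, in which Cd163 and Slc40a1 act, was followed with 17 further genes. In calcitriol against CNT 1 of 17 fell, Ftl1, the ferritin light chain (-0.47 ± 0.083, limma adjusted p = 0.0149), and in the other 5 comparisons 0 of 17 passed. The share of all genes called lower in calcitriol against CNT was 2.27%. No gene of the list passed in calcitriol against CNT without HFHS_Calcitriol replicate 2 or without CNT replicate 2. Hmox1, the heme-degrading oxygenase induced by heme uptake, had -0.12 ± 0.18 with calcitriol and -0.24 ± 0.18 with curcumin against HFHS, and 0.56 ± 0.18 in HFHS against CNT (limma adjusted p = 0.0591). Hp, which encodes the haptoglobin that CD163 binds, had 0.80 ± 0.38 with calcitriol against HFHS (limma adjusted p = 0.246). Hamp, the gene of hepcidin, which removes ferroportin from the cell surface, had -1.20 ± 0.39 in HFHS against CNT (limma adjusted p = 0.0648).

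Markers of other cells moved beside these results, and their part in them was not tested. The share of all genes called was 6.55% higher and 5.36% lower in HFHS against CNT. It was 0.973% higher and 1.23% lower in calcitriol against HFHS. Against CNT it was 1.77% higher and 2.27% lower with calcitriol, and 1.6% higher and 1.91% lower with curcumin. The mean deviation of the 7 erythroid markers tested was 0.35 to 0.66 in HFHS_Calcitriol, 0.20 to 0.39 in HFHS_Curcumin, -0.75 to -0.09 in HFHS and -0.89 to 0.10 in CNT (log2), so both treated groups were wholly above HFHS and CNT. Their median difference was 0.90 with calcitriol and 0.66 with curcumin against HFHS, and 1.02 with calcitriol and 0.84 with curcumin against CNT. Alas2, the first enzyme of heme synthesis in red cells, was the 1 that rose with calcitriol against HFHS (0.57 ± 0.13, limma adjusted p = 0.0415), with calcitriol against CNT (0.81 ± 0.13, limma adjusted p = 0.00814) and with curcumin against CNT (0.66 ± 0.13, limma adjusted p = 0.0171). On leaving out 1 library 0 to 1 of the 7 passed in calcitriol against HFHS (1 without HFHS replicate 2 and 0 otherwise). Without CNT replicate 3, 7 passed in calcitriol and 6 in curcumin against CNT, and without any other single library 1 passed with calcitriol and 0 with curcumin. The summed level of 10 sinusoidal endothelial markers was 12.7 to 12.8 in HFHS_Calcitriol, 12.0 to 12.3 in HFHS_Curcumin, 12.2 to 12.7 in HFHS and 12.0 to 12.7 in CNT (log2 of the sum). Of these, Clec4g rose with calcitriol against HFHS (0.63 ± 0.13, limma adjusted p = 0.038), and Bmp2 with calcitriol against CNT (0.52 ± 0.12, limma adjusted p = 0.036). The endothelial list had no call in calcitriol against HFHS without HFHS replicate 1 or 3 or HFHS_Calcitriol replicate 2 or 3, and none in calcitriol against CNT without HFHS_Calcitriol replicate 2 or 3 or CNT replicate 2 or 3. The summed level of 9 neutrophil markers was 7.52 to 8.32 in HFHS_Calcitriol, 7.21 to 7.54 in HFHS_Curcumin, 7.31 to 8.02 in HFHS and 6.97 to 7.41 in CNT, with Retnlg, Mmp8, Camp and Ly6g too low to test and 0 of 5 passing. The summed level of 6 adipocyte markers was 10.2 in HFHS replicate 3, the library lowest in its group for all 10 resident genes, and at most 7.41 in the other 11, with Adipoq, Plin1, Retn and Lep too low to test. Of 8 stellate cell markers 4 rose in HFHS against CNT (Lrat, Des, Dcn and Col3a1), and of 10 hepatocyte markers 3 fell there (Cps1, Serpina3k and Hpd). Of 8 lymphocyte markers tested 1 rose in HFHS against CNT, Cd4, with 0 in the other 5 comparisons. In HFHS against CNT 0 stellate, hepatocyte and lymphocyte markers passed without HFHS replicate 1, HFHS replicate 3 or CNT replicate 2. Without HFHS replicate 2, 8 stellate markers passed there (7 higher and 1 lower), with 4 hepatocyte markers, all lower, and 4 lymphocyte markers, all higher. That last fit called 3717 of all genes. Des also fell in calcitriol against HFHS (-0.41, limma adjusted p = 0.0455). Leaving out 1 library gave 6 stellate calls there (1 higher and 5 lower) without HFHS replicate 2, where 2194 of all genes were called, and 0 otherwise. None of 3 dendritic cell or 4 peritoneal and capsule macrophage markers passed in any comparison. The summed level of 5 peritoneal and capsule markers was 11.03 to 12.06 in HFHS_Calcitriol, 10.33 to 10.84 in HFHS_Curcumin, 10.37 to 10.66 in HFHS and 10.35 to 11.39 in CNT. Such a sum follows the most abundant markers. Of the 4 tested, 2 had differences above 0 and 2 below in calcitriol against HFHS (median -0.02). In calcitriol against CNT 3 were above 0 and 1 below (median 0.20). No marker list had a call with HFHS replicate 2 alone in the 3 comparisons that use HFHS. None of the listed markers was at exactly 0 in all 12 libraries.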

How the data were processed

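Whole-liver RNA of 12 libraries in 4 groups of 3 was sequenced, and the authors deposited 1 table of log2 values per library, from -3.63 to 20.7. STAR 2.4.0d, DESeq2 1.8.1 and GRCm38 come from the submitters' processing notes, which give no role for them here. The transformation is not given in the sources used here, so differences of weak genes may be understated, and without counts there are no counting intervals. Of 45792 identifiers, 23411 had the value 0 in every library and were dropped.

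limma 3.58.1 in R 4.3.3 was fitted to the 4 group means over all 12 libraries for genes at log2 of 10 (3.32) or more in at least 3 libraries, with trended and robust empirical Bayes and with 6 two-sided comparisons, each adjusted by Benjamini-Hochberg over 12637 genes (threshold 0.05). Errors of differences are moderated SEs. The fit was tested on simulated independent values, with the same spread in every group for a given gene. It recovered 92 to 97% of differences of 1 and 54 to 67% of differences of 0.5 (log2). The simulation did not include the unequal spread between groups seen here, so it does not check the fit under that spread. Alternatives were no filter, plain empirical Bayes, quantile normalization, a replicate block, 2-group fits and leaving out libraries. Genes named outside the set were, by rule, listed genes past the threshold (at most 4 by p per list and comparison), 14 fixed genes such as Cd68 and Hmox1, and the 5 nearest in pattern; Cebpa completes a small count and was chosen after its value was seen. The members and lists were chosen with earlier results of these data known.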

Additional observations from a re-analysis of the deposited data

How the results depend on the processing

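Of the single-gene differences under the alternatives, 629 kept their direction and side of the threshold, 21 lost a call, 13 gained one and 27 changed sign; the cause of these changes was not tested. The replicate numbers were not treated as pairs: deviations of same-numbered libraries correlated with a mean r of 0.0866 over 18 pairs (-0.383 to 0.372, 9 over 0.1), against -0.043 over 36 other pairs. With a replicate block 242 genes were called in curcumin against HFHS (38 without it), and no other count over all genes or over the 10 moved by over 1.5 times. With no filter on low values 74 genes were called in curcumin against HFHS, 328 in calcitriol against CNT, and 0 of the 10 resident genes in calcitriol against HFHS. With quantile normalization 162 genes were called in curcumin against HFHS and 427 in calcitriol against HFHS, where 2 of the 10 passed. With only 2 groups in the fit 0 genes were called in curcumin or calcitriol against HFHS (0 of the 10 in both). Such fits called 13 genes in HFHS against CNT and 214 in curcumin against calcitriol. Against CNT, 1 of the 10 passed in curcumin, where 644 of all genes were called, and 6 in calcitriol, where 548 were. With HFHS replicate 2 alone 68 genes were called in HFHS against CNT, 0 in curcumin and 4 in calcitriol against HFHS (0 of the 10). Differences then changed sign or reached 0 for Cd163 in HFHS against CNT (0.38), for Clec4f (-0.06), Timd4 (-0.06), Vsig4 (-0.14), Marco (0.27), Adgre1 (0.09) and Folr2 (-0.16) in curcumin against HFHS, and for Marco in calcitriol against HFHS (0). Leaving out 1 library at a time, the number of genes called was 135 to 3717 in HFHS against CNT, 0 to 3207 in curcumin and 4 to 2194 in calcitriol against HFHS, 94 to 949 in curcumin and 73 to 609 in calcitriol against CNT, and 0 in curcumin against calcitriol. The number of the 10 called was then 0 to 1 in HFHS against CNT, 0 to 2 in curcumin and 0 to 4 in calcitriol against HFHS, 0 in curcumin and 0 to 3 in calcitriol against CNT. Differences that crossed 0 on leaving out a library ranged in HFHS against CNT from -0.08 to 0.20 for Clec4f and -0.01 to 0.41 for Timd4. In curcumin against HFHS they ranged from -0.09 to 0.33 for Timd4, -0.05 to 0.19 for Vsig4, -0.53 to 0.45 for Marco, -0.26 to 0.07 for Cd5l, -0.14 to 0.08 for Csf1r, -0.29 to 0.20 for Adgre1 and -0.04 to 0.21 for Folr2. For Marco they ranged from -0.93 to 0.18 in calcitriol against HFHS, -0.27 to 0.61 in calcitriol against CNT and -0.09 to 0.79 in curcumin against calcitriol. Where leaving out a library left 2 in a group, the spread came from all groups. The number of libraries and the unknown depth limit what these comparisons can show.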

Other observations

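Sinusoidal endothelial genes, which line the vessels in which Kupffer cells sit, were the list with the lowest median in curcumin against calcitriol. Of these genes 9 of 10 were lower in every curcumin library than in every calcitriol library, where 13.8% of all genes were, and their median difference was -0.58. None of the 10 passed in limma. The median was -0.23 for curcumin and 0.33 for calcitriol against HFHS. Whether the endothelial and resident macrophage differences are linked was not tested.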
